A study of Mus musculus with 6 samples.

Results

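The 10 smooth muscle contractile genes Svil, Cnn1, Acta2, Actg2, Tagln, Myh11, Myl9, Des, Tpm2 and Lmod1 were followed in mouse liver, out of 24239 gene symbols on the array. Every probe that is not a control and whose symbol in the deposited annotation is one of these names was taken, which gave 13 probes. Svil and Cnn1 were singled out by the study from these same arrays as genes that fell, so their values here are not independent evidence of a fall. The question was whether they fell together with the other contractile genes.

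Livers came from 7-week-old male B6C3F1 mice, a hybrid strain used in toxicology. The 3 control mice received corn oil by gavage, and the 3 TCE mice received trichloroethylene, an industrial solvent, in the same oil, at 1000 mg/kg body weight daily on 5 days. Liver RNA was not pooled, and that of each mouse was hybridized to its own single-dye array. Control 1 was on a slide of its own, and the other 5 mice shared a second slide.

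Smooth muscle shortens when myosin filaments pull on actin filaments. Calcium, acting through calmodulin and myosin light chain kinase, switches the myosin on, while calponin and caldesmon restrain it on the thin filament. In liver such cells sit mainly in the walls of portal vessels and arteries, and stellate cells take up part of the same gene program when activated. Many of these genes are controlled by serum response factor (SRF) and its partner myocardin through the CArG box in their promoters.

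The contractile genes showed no common direction. Tested across all measured probes, 0 of the 6 members bright enough to be tested were past the threshold in either direction, against 1.93% of all 13284 genes tested. By probe the count was 0 of 9, against 1.41% of all 22731 tested probes. Cnn1 and 1 of 3 Svil probes had the most negative differences, both at the edge of detection. Both probes of Tpm2 were higher in all TCE mice than in any control mouse, as were 15.5% of all tested probes. They read 1 gene, and neither passed the threshold (limma adjusted p 0.132 and 0.074). The 95% intervals of Tagln, Myl9 and Acta2 held 0.

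The probes that the results turn on are shown in part. The first 30 of 60 bases are given for Cnn1, the only probe of the calponin gene, and for the pair of Tpm2 probes, which lie on different parts of that gene and behaved alike. Positions refer to mm9, as the array's annotation has them, and the letters are the sense strand of the transcript.
Cnn1, chr9:21913058-21913117, plus strand: acacacgcattttggttttgcagtgactgg
Tpm2 probe 1, chr4:43531276-43531335, minus strand: attccaccaaagaggacaaatacgaagaag
Tpm2 probe 2, chr4:43532262-43532321, minus strand: ggagatgcagctgaaggaagccaagcacat
The 78 pairs of member probes were compared with each other. The longest run of identical bases in any pair was 10, and between the actin probes of Acta2 and Actg2 it was 6. Probes were not compared with the transcripts of other genes, so this cannot show whether a probe also reads a related gene.

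A signal is given throughout as log2 of the quantile-normalized intensity, so a difference of 1 is a doubling, and a probe is compared only with itself across mice. The scanner software marks a spot as well above background or not. A probe was tested when all 3 arrays of either group showed it well above background. This left 9 of the 13 probes, from 6 genes, while Actg2, Myh11, Des and Lmod1 were too dim. Of the defining smooth muscle genes, Acta2 reached that mark on 6 of 6 arrays, Cnn1 on 3, and Myh11 on 1, so Cnn1 and Myh11 lay near the lower limit of the array while Acta2 did not. The hepatocyte markers Alb, Ttr and Apoa1 were well above background on all 6 arrays.

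Supervillin, the product of Svil, is a membrane-linked protein of the villin and gelsolin family that binds actin and myosin. Its 3 probes lie on the plus strand of chromosome 18. The upstream probe is at chr18:5049365-5049424, the middle probe at chr18:5058328-5058387, 9.0 kb further on, and the downstream probe at chr18:5118987-5119046, which is 69.6 kb from the first. The array annotation assigns the upstream and downstream probes to the RefSeq mRNA of Svil and the middle probe to a separate cDNA clone from thymus. Whether the middle probe lies in an exon used in liver was not analysed here.

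The downstream probe, measurable on all 6 arrays, gave a signal of 10.57, 10.63 and 11.08 in control mice 1, 2 and 3 and of 10.27, 10.34 and 10.31 in TCE mice 1, 2 and 3. All TCE mice lay below all control mice, but the difference was small. It was -0.45 (SE 0.16, 95% interval -0.84 to -0.06), with a limma adjusted p of 0.227. The interval holds no fall of 2-fold.

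The middle probe gave 5.87, 5.73 and 5.58 in the control mice and 2.66, 4.45 and 4.66 in the TCE mice. It was well above background in all control mice and in 0 TCE mice. The means were 5.72 and 3.92, a measured difference of -1.80 (SE 0.52) with a limma adjusted p of 0.15. The TCE values are below what the array measures. With each raised to the lowest signal called well above background on its array, the fall was 1.95-fold. That figure holds for this normalization only and leaves out the spread between mice. TCE mouse 1 alone held the lowest value, and without it the difference was -1.16. With another background correction (normexp) it was -0.49.

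The upstream probe did not separate the groups. It gave 5.06, 5.89 and 5.98 in the control mice and 5.27, 5.89 and 5.26 in the TCE mice, with control 1 not well above background. The difference was -0.17 (95% interval -0.89 to 0.56), limma adjusted p 0.817.

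Within each mouse, the downstream and upstream Svil probes could be set against each other. Their changes differed by -0.28 on the log2 scale, with overlap between the groups (exact permutation p = 0.4, two-sided, 3 mice a group). The smallest p that 20 splits of 6 mice can give is 0.1, so the design cannot reach 0.05. The change of the middle probe differed from that of the downstream probe by -1.35 and from that of the upstream probe by -1.63. The groups did not overlap in either comparison (exact permutation p = 0.1 each, two-sided). Because the TCE values of the middle probe were not well above background, nothing is concluded from these 2 comparisons.

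Calponin 1, from Cnn1, is a thin filament protein of differentiated smooth muscle that slows the myosin motor. Its probe gave 6.01, 5.67 and 4.92 in control mice 1, 2 and 3 and 2.52, 2.51 and 4.49 in TCE mice 1, 2 and 3. The groups did not overlap, but the gap between the lowest control and the highest TCE mouse was small compared with the spread in each group. As with the middle Svil probe, all control mice and 0 TCE mice were well above background.

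The Cnn1 means were 5.54 and 3.18, a measured difference of -2.36 (SE 0.59, 95% interval -3.78 to -0.95), and the limma adjusted p was 0.114. With the TCE values raised in the same way as for the middle Svil probe, Cnn1 was 1.71-fold lower in TCE mice, again for this normalization only. Among the mice of the second slide alone, which leaves out control 1, the difference was -2.12 (adjusted p 0.263). Leaving out TCE mouse 3, the one with the highest Cnn1 signal in its group, gave -3.02 with a limma adjusted p of 0.0317, past the threshold. With the normexp correction the difference shrank to -0.63.

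**Figure D1:**
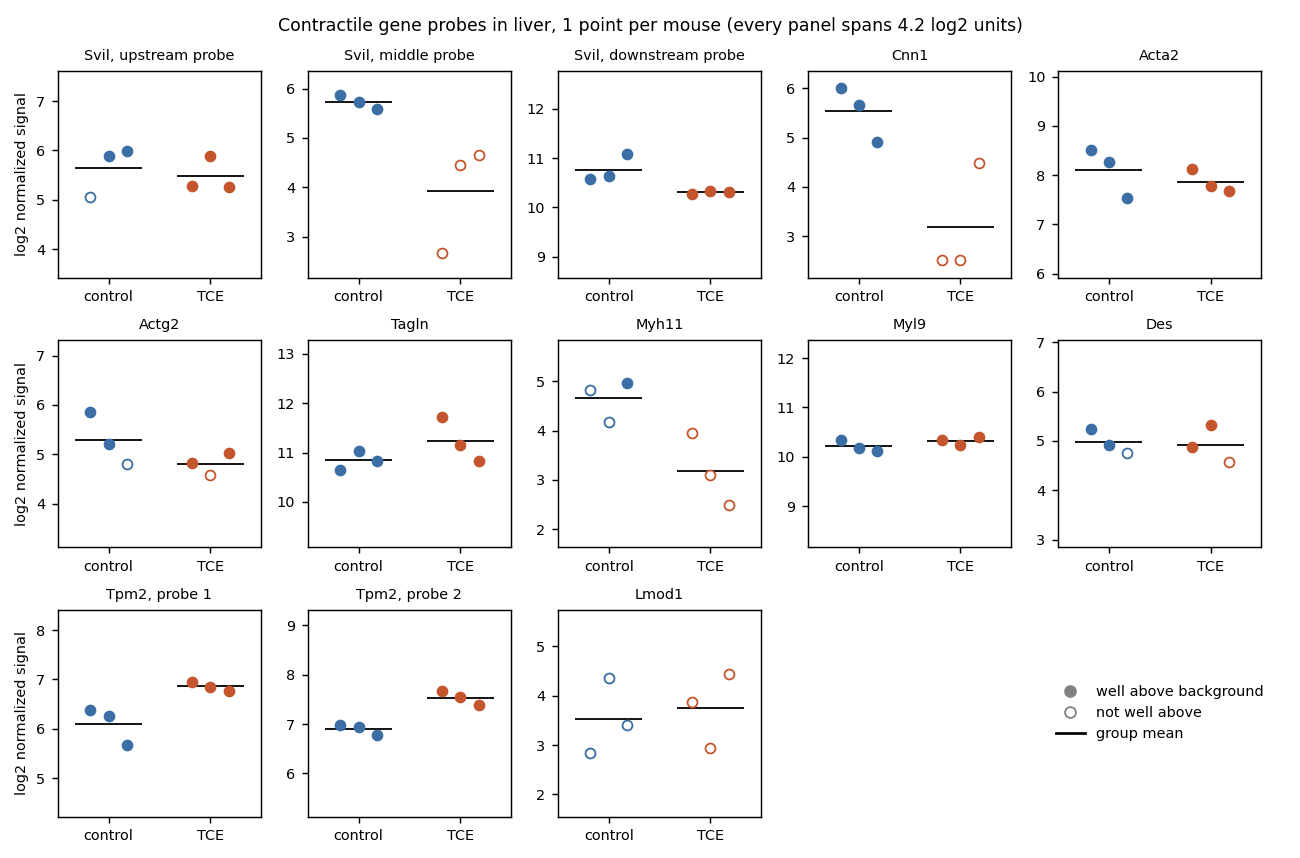
Log2 normalized signal (vertical axes, each spanning 4.2 units) of the 13 probes of the contractile genes in 3 control and 3 TCE mice, 1 point per mouse, with open points where the signal was not well above background and bars at the group means. At the middle Svil probe and at Cnn1 every TCE point is open, and at both Tpm2 probes every TCE point is filled and above all control points.

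Of the 55681 probes, 53 were well above background in all control mice and in 0 TCE mice, among them the middle Svil probe and the Cnn1 probe. Svil and Cnn1 were singled out from these same arrays as genes that fell, so their place among the 53 is no separate evidence. The opposite pattern, well above background in 0 control mice and in all TCE mice, was held by 119 probes and by 0 members.

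Of the actins of the thin filament, 1 could be tested. Acta2, vascular smooth muscle actin (chr19:34316060-34316119), gave 8.50, 8.27 and 7.54 in the control mice and 8.13, 7.78 and 7.67 in the TCE mice, each the mean of 10 spots. The groups overlapped, and the difference was -0.24 (95% interval -0.90 to 0.42, limma adjusted p 0.688). Control 3 was the lowest of all 6 mice.

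Actg2, the enteric smooth muscle actin (chr6:83462904-83462963), gave 5.86, 5.20 and 4.81 in the control mice and 4.83, 4.57 and 5.03 in the TCE mice. It was well above background in 2 mice of each group, so it was not tested, and its means differed by -0.48 with overlap.

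Tagln and Tpm2, also of the thin filament, had higher means in the TCE mice, unlike Cnn1, and neither was past the threshold. Tagln encodes transgelin, or SM22, an actin-binding protein related to calponin and among the earliest smooth muscle markers. At chr9:45738097-45738156 it gave 10.64, 11.04 and 10.83 in the control mice and 11.72, 11.16 and 10.82 in the TCE mice. TCE mouse 1 was highest, TCE mouse 3 lay among the controls, and the difference of 0.40 had a 95% interval of -0.20 to 0.99 (limma adjusted p 0.46).

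Tpm2 encodes beta-tropomyosin, which lies along the actin filament and gates access of myosin. Probe 1 gave 6.39, 6.25 and 5.68 in the control mice and 6.95, 6.85 and 6.77 in the TCE mice. Probe 2 gave 6.98, 6.94 and 6.77 in the control mice and 7.67, 7.54 and 7.38 in the TCE mice. At both probes every TCE mouse was above every control mouse, and all 6 arrays were well above background.

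For Tpm2 the differences were 0.75 (SE 0.20, limma adjusted p 0.132) at probe 1 and 0.64 (SE 0.13, limma adjusted p 0.074) at probe 2. Neither passed the threshold. They remained positive under every alternative tried, between 0.44 and 0.89 over both probes. Since the 2 probes read the same gene in the same mice, they are not separate evidence.

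Lmod1, leiomodin 1, which starts new actin filaments in smooth muscle, was well above background on 0 of 6 arrays. Its probe at chr1:137264581-137264640 ranged from 2.84 to 4.45 over the 6 mice, and no difference can be stated.

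Of the myosin genes, Myh11 was dim and Myl9 bright. Myh11 encodes the smooth muscle myosin heavy chain, the most specific of these markers. At chr16:14202190-14202249 it gave 4.82, 4.18 and 4.97 in the control mice and 3.95, 3.10 and 2.50 in the TCE mice. All TCE mice were lower, but only control 3 was well above background, so Myh11 was not tested, and the lowest measurable signal allows no fold to be stated. Without a filter on dim probes its difference of -1.47 had a limma adjusted p of 0.357.

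Myl9, the regulatory light chain that the kinase phosphorylates (chr2:156607301-156607360), had the smallest standard error of the tested member probes, 0.12. It gave 10.35, 10.17 and 10.12 in the control mice and 10.33, 10.23 and 10.41 in the TCE mice. The groups overlapped, with a difference of 0.11 (95% interval -0.18 to 0.40, limma adjusted p 0.682), an interval that holds no 2-fold change.

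Des encodes desmin, the intermediate filament of muscle, also found in stellate cells. Its probe, spanning chr1:75363404-75363629 and read on 10 spots, gave 5.25, 4.92 and 4.75 in the control mice and 4.88, 5.32 and 4.57 in the TCE mice. It was well above background in 2 mice of each group and not tested, with a difference of -0.05.

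**Figure D2:**
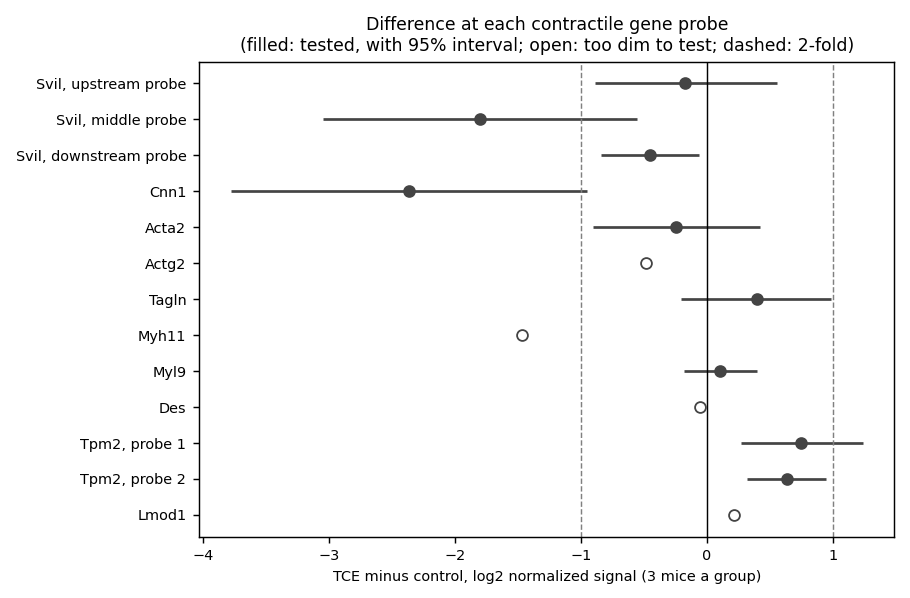
Difference between TCE and control mice in log2 normalized signal (horizontal axis) for each probe of the contractile genes, filled with its 95% interval from limma where tested and open where too dim. The intervals of Cnn1 and of the middle and downstream Svil probes lie below 0, those of both Tpm2 probes above 0, and the rest cross 0, but 0 of these tested probes passed after adjustment.

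Taking the 9 tested probes together, 3 were lower in all TCE mice than in all control mice, namely Cnn1 and the middle and downstream Svil probes, and 2 were higher, both of Tpm2. Among all tested probes the groups did not overlap in 10.2% in the lower direction and in 15.5% in the higher direction. Cnn1 and the middle Svil probe entered the test only through the control mice, so their place in this count is no separate evidence. An unadjusted limma p under 0.05 was reached by 5 of the 9 probes, the same ones, and by 17.9% of all tested probes. These are probes of Svil and Cnn1, singled out from these same arrays, and 2 probes of 1 gene, Tpm2. Nothing is therefore concluded from setting their number beside that share. With each gene represented by its probe of highest mean signal, 3 members were higher and 3 lower, with a median difference of -0.07 against 0.02 over all genes. The median was 0.07 without control 1 and -0.23 without control 3.

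The t-test of the study's methods, at an unadjusted P value of 0.05 and a fold change of 2, counted 2 of the 6 tested members as lower, Svil by its middle probe (unadjusted p = 0.0489 by the methods' test across all probes, limma adjusted p 0.15) and Cnn1 (unadjusted p = 0.0323, limma adjusted p 0.114). By that rule 1.08% of all genes were lower. Svil and Cnn1 were singled out by the study with the same rule on these same arrays. The count of 2 was therefore fixed in advance, and nothing is concluded from setting it beside that share. After Benjamini-Hochberg adjustment of the same test, 0 members passed. Both genes met the fold limit only through signals not well above background.

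Profiles over the 6 mice were then compared, after subtracting the mean of each probe, by the root mean square distance in log2 units. For the downstream Svil probe, the probe of highest mean signal, the nearest genes were Gm8457, Hsd17b7, Lrig1, Dnaja4 and Mme, at distances of 0.051 to 0.085. Cnn1 lay nearest to Myh6, a cardiac myosin heavy chain, at 0.252, and then to Padi1, Lrtm1, Map6d1 and Fblim1, up to 0.558. The middle Svil probe, chosen for this after its values were seen, lay nearest to Slc16a10 at 0.288 and to Hsd3b5 at 0.291. No other member was among the 5 nearest of any of these 3 probes. Members hold only 9 of the 22731 tested probes, so this absence was likely in any case. The TCE values of Cnn1, of the middle Svil probe and of Myh6 all lay under the detection mark, so distances that use them compare signals below what the array measures, and their order is uncertain. Cnn1 was at 0.702 from the middle Svil probe and at 1.256 to 1.712 from the other tested members.

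The order of the mice was counted over the members. Control 1 was the highest control mouse at 8 of the 13 member probes, and control 3 was the lowest at 8 of 13. In the TCE group, mouse 3 was the lowest at 7 of 13 but also the highest at 5 of 13, as often as mouse 1. The part of the slide in these orders was not tested.

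The promoters of the members were searched for the CArG box, a palindrome of 10 bases made of a pair of C, 6 bases that are A or T, and a pair of G. The RefSeq promoter table on GRCm38.p6, with 250 bases before and 50 after each gene start, held 6 of the 10 members. An exact match was found for 1 of them, Myl9, and at most 1 mismatch for Acta2 and Lmod1, while Cnn1, Des and Tpm2 had neither. Of all 32851 promoters, 1.63% held an exact match and 21.1% a match with at most 1 mismatch. The windows show in capitals the exact match of Myl9 and, for Acta2 and Lmod1, the most upstream stretch with 1 mismatch. Further stretches with 1 mismatch lay 99 bases before the start at Myl9, 34 at Acta2 and 164 at Lmod1.
Myl9, 161 bases before the start, chr2:156775293-156775322, plus strand: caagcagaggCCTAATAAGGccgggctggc
Acta2, 84 bases before the start, chr19:34255438-34255467, minus strand: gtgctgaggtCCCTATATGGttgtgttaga
Lmod1, 189 bases before the start, chr1:135324614-135324643, plus strand: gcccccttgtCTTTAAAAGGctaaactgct
The groups overlapped at Myl9, Acta2 and Lmod1, and also at Des, which held no match. Lmod1 and Des were too dim to be tested, so nothing is concluded from their overlap. The search describes letters in a short window and says nothing of SRF itself.

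Beyond the 10 members, 34 further genes of the smooth muscle machinery and its SRF and myocardin regulators were on the array. Of these 25 were tested and 0 were past the threshold, with 17 lower and 8 higher and a median of -0.13. Over all 13284 tested genes 6226 were lower and 7058 higher. Mylk, the myosin light chain kinase, was at 8.59, 8.67 and 8.62 in the control mice and 8.18, 8.19 and 8.16 in the TCE mice, a tight separation of -0.45 (limma adjusted p 0.0936). Tpm1, the second tropomyosin gene, disagreed among its probes. At 2 probes all TCE mice were higher, by 0.81 and 0.57 (limma adjusted p 0.0674 and 0.0646), as at 15.5% of all tested probes. Another 2 probes were at 0.33 and 0.18 with overlap (limma adjusted p 0.403 and 0.592). The Tpm1 probe of highest signal gave -1.08 through TCE mouse 2 alone, at 9.67 against 12.25 and 12.33. Caldesmon (Cald1, -0.09 and -0.24), filamin A (Flna, 0.17) and Srf (-0.06 and -0.17) were not past the threshold.

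Counterparts used outside muscle were measured at all 15 genes and 0 were past the threshold, with a median of 0.01. The calponins Cnn2 and Cnn3, close relatives of Cnn1, were at -0.24 and -0.28, the cytoplasmic actins Actb and Actg1 at -0.14 and -0.08, and Myh9 at 0.01. Myh10, non-muscle myosin IIB, was at 7.85, 7.78 and 7.74 in the control mice and at 7.03, 6.98 and 6.93 in the TCE mice, a difference of -0.81 with a limma adjusted p of 0.0228 that stayed under the fold limit. Without the fold limit 2.67% of all genes were called. In every fit that left out a mouse its adjusted p was above 0.05, from 0.0599 to 0.115.

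The villin and gelsolin family, to which supervillin belongs, had 1 of 5 tested genes past the threshold, against 1.93% of all tested genes. Vil1, villin of bile canaliculi and other brush borders, was at 5.87, 5.15 and 4.95 in the control mice and 3.89, 3.70 and 3.90 in the TCE mice. It was well above background in 0 TCE mice (limma adjusted p 0.0419) and entered the test only through the control mice. Nothing is therefore concluded from setting 1 of 5 beside the share over all genes. Without the filter on dim probes Vil1 had a limma adjusted p of 0.161. With the TCE values raised to the lowest signal called well above background, it was 1.47-fold lower. This figure is under the fold of 2, and the call rests on TCE signals below what the array measures. It passed again without control 1 and in 0 of the other 5 fits that left out a mouse. With the normexp correction it was at -0.38 (adjusted p 0.183). Gsn, gelsolin, had probes at -0.88 (limma adjusted p 0.0359, under the fold limit) and -0.70 (0.241).

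Of 31 striated muscle genes, 5 were tested and Myh6 was past the threshold, against 1.93% of all tested genes. Myh6 entered the test only through the control mice, so nothing is concluded from setting 1 of 5 beside that share. Of all probes with this detection pattern 24.5% were called. Without the filter on dim probes Myh6 had a limma adjusted p of 0.17. It gave 6.31, 5.96 and 5.55 in the control mice and 2.96, 2.77 and 4.29 in the TCE mice, with 0 TCE mice well above background (limma adjusted p 0.0413). With the TCE values raised to the lowest signal called well above background, it was 2.26-fold lower under this normalization. It passed again without TCE mouse 3, and in 0 of the other 5 fits that left out a mouse. With the normexp correction it was at -0.72 (adjusted p 0.0758). The call rests on 1 probe: another Myh6 probe was well above background on 0 of 6 arrays and not tested, at -0.40 with overlap between the groups. The defining markers Ckm and Acta1 were well above background on 0 of 6 arrays, and Tnnt2 on 2.

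Lists for cells that carry contractile genes were read beside the members. In a bulk liver sample, fewer cells of a type and less RNA per cell cannot be told apart. For hepatic stellate cells 19 of 20 genes were tested, 0 were past the threshold, 16 were lower, and the median was -0.20. Over all 13284 tested genes 6226 were lower. The log2 of the summed stellate signal ran from 16.14 to 16.41 in the control mice and from 16.11 to 16.25 in the TCE mice.

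The retinol-storing enzyme of stellate cells, Lrat, was at 8.08, 8.56 and 7.85 in the control mice and 7.01, 6.35 and 7.08 in the TCE mice (-1.35, limma adjusted p 0.0676). Ngfr was at -0.97 (adjusted p 0.0738). The count of stellate genes past the threshold rose to 2 with array weights (Lrat and Ngfr), and to 1 with another variance model (Lrat), with the unadjusted test of the study's methods (Lrat) and without TCE mouse 2 (Ngfr). The other defining markers were Reln and Colec11. Reln gave 8.57, 6.41 and 6.38 in the control mice and 5.80, 6.55 and 4.99 in the TCE mice. Its groups overlapped (-1.34, limma adjusted p 0.368), and Colec11 was at -0.25 (limma adjusted p 0.361). The part of these stellate genes in the Cnn1 and Svil values was not tested. In the vascular wall list 0 of 7 tested genes were past the threshold, with a median of -0.20, Mcam at -0.58 (limma adjusted p 0.0988), Notch3 at -0.10 and Cspg4 well above background on 0 arrays. In the endothelial list 0 of 12 were past the threshold and 12 were lower, with a median of -0.25. Over all 13284 tested genes 6226 were lower, and genes of 1 list measured in the same mice are not independent. The endothelial log2 summed signal was 15.09 to 15.12 in the control and 14.29 to 15.19 in the TCE mice.

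Portal fibroblast genes had a median of 0.01 with 0 of 7 past the threshold, Thy1 at -0.38, Fbln2 at 0.01 and Eln well above background on 0 arrays. The hepatocyte list had a median of -0.04, 0 of 11 past the threshold, and Alb at -0.18. Red blood cell genes, a sign of residual blood, had a median of -0.64 with 0 of 6 past the threshold, and a log2 summed signal of 18.09 to 18.44 in the control and 16.77 to 18.27 in the TCE mice. Alas2, which makes heme in those cells, was at -0.91 (limma adjusted p 0.0215), under the fold limit. The part of blood in the members' values was not tested. For bile duct genes 1 of 6 was past the threshold, the keratin Krt23 at 2.70 (limma adjusted p 0.0218), while Krt19 was at -0.13 and Epcam well above background on 0 arrays. Krt23 passed again in 2 of the 6 fits that left out a mouse, those without TCE mouse 1 or 2. In the mesothelium list only Krt8 was tested, at 0.43, with Upk3b and Wt1 well above background on 4 of 6 arrays each.

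**Figure D3:**
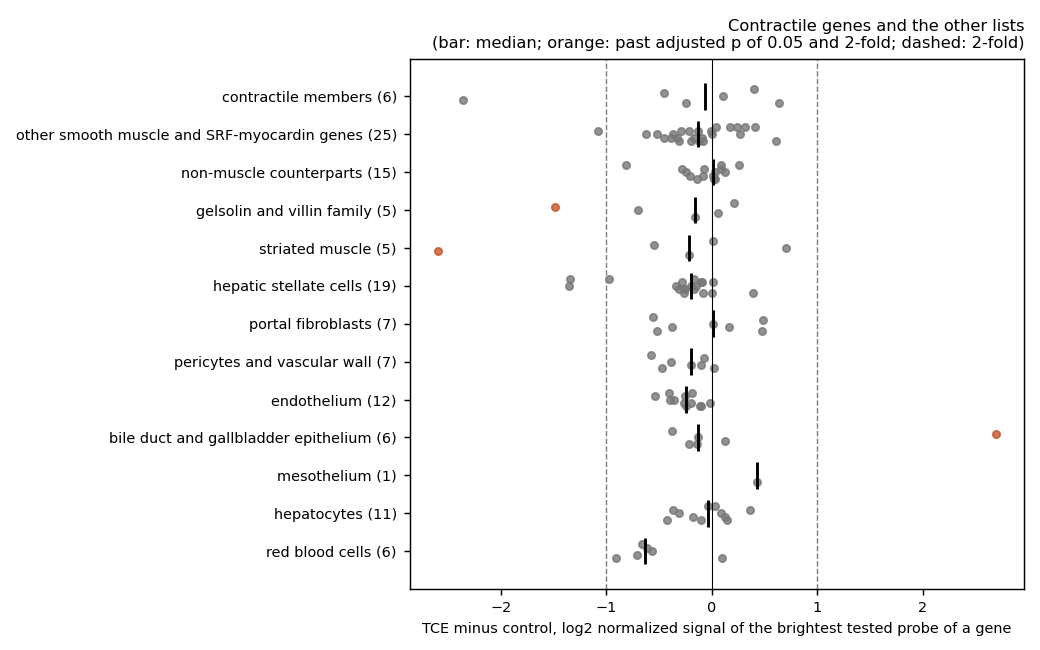
Difference between TCE and control mice in log2 normalized signal (horizontal axis) for each tested gene of the contractile members and of the other 12 lists, 1 point per gene, with the median of each list as a bar and the number tested in brackets. The members run from -2.36 for Cnn1 to 0.64 for Tpm2 around a median of -0.07, and orange points mark Vil1, Myh6 and Krt23.

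The middle Svil probe and Cnn1 were the members that moved most with the processing. Leaving out each mouse in turn, the difference of the middle Svil probe ran from -2.17 to -1.16 and that of Cnn1 from -3.02 to -2.03. The downstream Svil probe, bright in all mice, stayed between -0.55 and -0.29. The second Tpm2 probe stayed between 0.57 and 0.71.

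**Figure D4:**
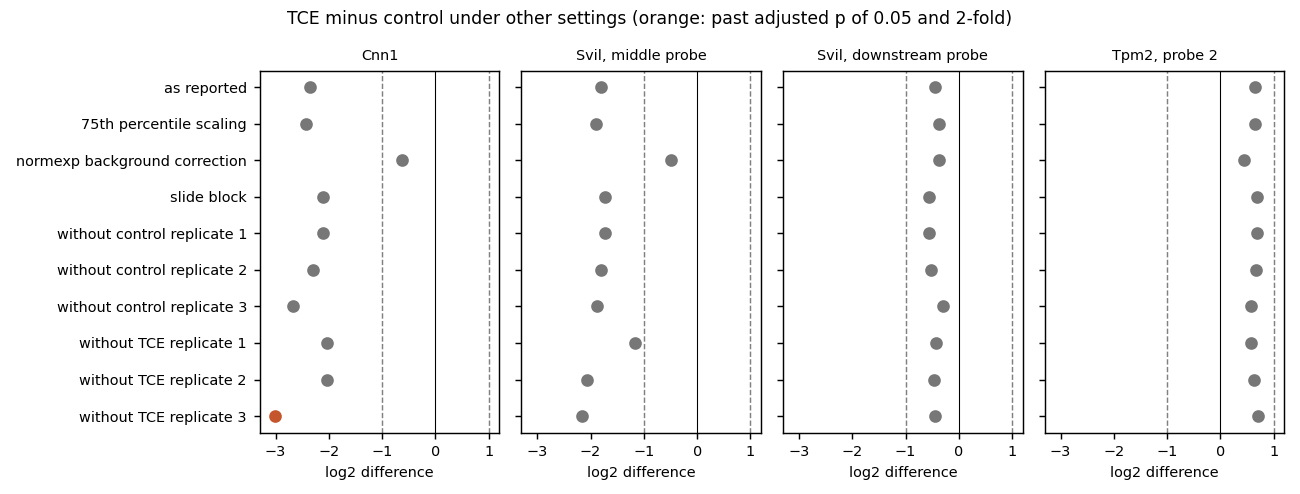
Difference between TCE and control mice in log2 normalized signal (horizontal axes) for Cnn1, the middle and downstream Svil probes and the second Tpm2 probe, as reported and under 9 other settings (rows), with orange where the adjusted p was 0.05 or less and the change at least 2-fold. Only Cnn1 without TCE mouse 3 is orange, and the normexp correction brings Cnn1 to -0.63 and the middle Svil probe to -0.49.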

How the data were processed

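Liver RNA of 6 mice was measured on 6 single-dye Agilent arrays. Per the labels, the authors extracted the scanner images with Agilent Feature Extraction 10.7.1.1, and the deposited files give a background-subtracted intensity per spot. The deposited table of the series holds log2 quantile-normalized means of each group, as the authors made them, an annotation on mm9, and 6 columns of flags per array that were not used.

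Control spots and outlier spots were left out, log2 of the processed intensity was averaged over spots of a probe, and the 55681 probes were quantile normalized. The resulting group means lay within 0.01 of the deposited log2 means for 99.98% of probes. Between 23537 and 24965 probes per array were well above background (over 0.5 of a probe's spots), and 0 spots were saturated. The number of arrays limits the precision. The 22731 detected probes entered a linear model in limma 3.58.1 (R 4.3.3, two-sided, group as the factor), with the package data.table, version 1.17.8, and figures used matplotlib in Python. Calls needed a Benjamini-Hochberg adjusted p of at most 0.05 and a 2-fold change, and a gene was called by any probe. The fit was checked on simulated data. The exact permutation test used all 20 splits.

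All members were named, and in other lists the genes past the threshold plus up to 4 bright or defining ones. Some further genes (Mylk, Tpm1, Cald1, Srf, Ngfr, Mcam and Krt8) were named after their values were seen. The members and lists were chosen with earlier results of these data known. Alternatives were another scaling, another background correction, other filters, outlier spots kept, blocks, array weights, other variance models and tests, each mouse left out, and the authors' deposited group means. Replicate numbers did not pair the samples. Titles and file names number the mice differently, and the record of each file was followed. P-values measure the spread between these mice. The study's qPCR was not analysed here, and its mice at other doses were not used.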

Additional observations from a re-analysis of the deposited data

How the results depend on the processing

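The 321 probes past the threshold became 96 with no filter on dim probes, 177 with the slide as a block, 594 by the methods' t-test without adjustment and 35 with it, and 124 to 242 with a mouse left out. Members past the threshold numbered 2 by the unadjusted t-test, Cnn1 and Svil, and 0 to 1 with a mouse left out, the 1 being Cnn1 without TCE mouse 3, and 0 otherwise. The members' median of -0.07 was 0.11 over the 5 genes well above background on all 6 arrays, 0.07 with the slide block, and -0.23 to 0.07 with a mouse left out, and otherwise moved by less than 0.10, the spread over mice. Values under alternatives were counted for the member probes and for the named probes of Krt23, Alas2, Vil1, Gsn, Myh10 and Myh6. Of these 286 values, 251 kept direction and side of the threshold. The 28 that no longer passed were all of Krt23, Vil1 and Myh6. Settings that changed only the test could not change a direction. The upstream Svil probe changed sign without control 3, at 0.00, and ran down to -0.46 without control 1. With the replicate block, 63 probes and 0 members were past the threshold, but same-numbered mice did not deviate together (r = 0.09, 0.01 and -0.09), so the numbers give no pairing. Except where the construction shows it (fewer mice, more or fewer probes tested), the cause of a move was not tested. Dim probes bound what can be said: 4 members were not tested. The TCE signals of Cnn1 and of the middle Svil probe lay below what the array measures, so the size of their difference depends on the processing.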
